A study of Homo sapiens with 17 samples.

Results

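The binding of FOXA1 was compared between A549 cells with and without induction of A-Fos, from 2 peak lists of each condition. Peaks on chromosomes 1 to 22 and X that shared at least 1 bp were joined into regions, which gave 27825 FOXA1 regions, against 618541 regions over all 14 peak lists of the series. Each region was described by the lists that called it, its width, its gene context and its chromosome. A region is called lost here when both No Dox lists and neither Dox list held it, gained in the opposite case, and kept when all 4 lists held it. These words describe the lists and carry no cause.

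A549 is an established human lung carcinoma line. The Dox group (A-Fos, Dox, FOXA1) was the line with A-Fos integrated by the piggyBac transposon, given 1 µg/mL doxycycline for 48 h before fixation. The No Dox group (A-Fos, No Dox, FOXA1) was the same line untreated, so both groups carried A-Fos. The labels name 2 biological replicates per group and do not say whether the line was 1 clone. Doxycycline-treated cells lacking A-Fos were not analysed here, so induction and the drug cannot be told apart. Unmodified (WT) A549 cells gave FOXA1, H3K9me3 and H3K27me3 lists, and the A-Fos line gave FOSL2 lists, which the choice of regions did not use.

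FOXA1 is a forkhead factor that can bind its sites in closed chromatin and open them for other factors. It helps to build lung, liver and gut epithelium. AP-1 is a dimer of Fos and Jun proteins, FOSL2 among them, that binds a short palindromic sequence at promoters and enhancers and answers growth and stress signals. A-Fos is a dominant-negative Fos whose basic region was replaced by an acidic one, so that a dimer with Jun cannot bind DNA. H3K27me3 is set by Polycomb complexes and H3K9me3 marks constitutive heterochromatin, both as a rule at silent genes.

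At gene starts, AP-1 letters were most frequent under lost regions, and forkhead letters were more frequent under gained and kept regions than under lost ones. Promoter windows of 300 bases, from 250 before to 50 after a transcription start, were taken from RefSeq (GRCh38.p14), and TGANTCA (AP-1) and TGTTTAC (forkhead) were searched on both strands. Each region was matched to the window it covered most. For protein-coding genes 9 lost, 22 gained and 57 kept regions each gave a distinct window. The region covered the whole window in 3 of the 9 lost, 2 of the 22 gained and 32 of the 57 kept cases. In the other cases a match can lie outside the region, and this coverage differed between the classes. The AP-1 letters stood in 7 of the 9 lost windows (77.8%, 95% exact interval 39.99 to 97.2), in 2 of the 22 gained windows (9.09%, 1.12 to 29.2) and in 5 of the 57 kept windows (8.77%, 2.91 to 19.3), against 6.16% of all 22012 windows. The forkhead letters stood in 1 of 9 lost windows (11.1%, 0.281 to 48.2), in 8 of 22 gained windows (36.4%, 17.2 to 59.3) and in 17 of 57 kept windows (29.8%, 18.4 to 43.4), against 2.86% of all windows.

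The first AP-1 match of each of the 7 lost windows is shown with up to 9 bases on either side, since the share with these letters differed most between lost and gained windows. Sequences run 5′ to 3′ on the strand of the gene, in RefSeq GRCh38.p14, and capitals mark the match.
ADGRF4 (chr6:47698448-47698472, plus strand): acaaacaagTGACTCActttaatgg
C10orf90 (chr10:126521432-126521456, minus strand): gtggaagccTGACTCAttctgagcc
MBNL2 (chr13:97141739-97141763, plus strand): agcagagaaTGACTCAcattctctg
KIAA1217 (chr10:24466412-24466436, plus strand): ttgaaggacTGAGTCAcccgtgagg
HNMT (chr2:137964300-137964324, plus strand): ttcaaatatTGACTCAgtaatgagc
TMEM127 (chr2:96260608-96260632, minus strand): ctagcctggTGACTCAccagtgacc
PEX5 (chr12:7188988-7189012, plus strand): aggaagggcTGACTCActgttcacc
Of these first matches 6 read TGACTCA and 1 read TGAGTCA, which is the same site on the other strand. ADGRF4 encodes an adhesion receptor, MBNL2 a splicing regulator, HNMT an enzyme that inactivates histamine, and PEX5 the import receptor of peroxisomes. FOSL2 had been called without doxycycline in 6 of the 9 lost regions and in 5 of the 7 with AP-1 letters. It overlapped 40.3% of all 1872 lost regions. The lost windows without a match belonged to TGFBR2, the type II receptor of TGF-β, and FOXJ3, a forkhead gene.

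The 8 gained windows with forkhead letters are shown in the same way, to set them beside the lost ones.
CFAP126 (chr1:161367870-161367894, minus strand): gcaacgagtGTAAACAgcacaagat
FOXP1 (chr3:71245255-71245279, minus strand): ctatgttatTGTTTACtttaccata
IFT20 (chr17:28335453-28335477, minus strand): acgtcatagGTAAACAggctctgta
PLA2G2A (chr1:19980508-19980532, minus strand): atcgcagagTGTTTACttaaggcgg
RASSF6 (chr4:73620635-73620659, minus strand): cctaagaaaGTAAACActcccaaca
CAPN13 (chr2:30807564-30807588, minus strand): agctgttgcTGTTTACattcaatgt
SEMA3E (chr7:83649104-83649128, minus strand): aactttcctGTAAACAgccactgac
PLEKHG7 (chr12:92702840-92702864, plus strand): atcagccgtTGTTTACctgacttgt
None of these 8 windows held the AP-1 letters, and FOSL2 had been called without doxycycline in none of the 22 gained regions. As called without doxycycline, it overlapped 0.704% of all 1279 gained regions. FOSL2 called with doxycycline, in at least 1 list, overlapped 1.64% of gained, 0.855% of lost and 1.12% of kept regions, against 1.53% of all regions. CFAP126 and IFT20 serve cilia, PLA2G2A encodes a secreted phospholipase, SEMA3E a semaphorin, CAPN13 a calpain protease, and FOXP1 a forkhead repressor. The gained windows with AP-1 letters belonged to TGIF1 and TRIM44. The gained regions covered only 36 and 21 bp at an end of these windows, and both matches lay outside the regions.

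A window of each class that its region covered in full is printed whole, chosen after the matches were seen, to show the letters in context.
C10orf90 (chr10:126521392-126521691, minus strand): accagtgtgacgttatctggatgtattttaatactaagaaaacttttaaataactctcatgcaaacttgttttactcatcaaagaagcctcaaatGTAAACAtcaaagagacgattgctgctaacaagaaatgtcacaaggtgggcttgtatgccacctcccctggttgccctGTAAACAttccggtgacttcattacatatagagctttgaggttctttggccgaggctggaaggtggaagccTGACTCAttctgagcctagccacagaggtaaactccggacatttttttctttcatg
FOXP1 (chr3:71245028-71245327, minus strand): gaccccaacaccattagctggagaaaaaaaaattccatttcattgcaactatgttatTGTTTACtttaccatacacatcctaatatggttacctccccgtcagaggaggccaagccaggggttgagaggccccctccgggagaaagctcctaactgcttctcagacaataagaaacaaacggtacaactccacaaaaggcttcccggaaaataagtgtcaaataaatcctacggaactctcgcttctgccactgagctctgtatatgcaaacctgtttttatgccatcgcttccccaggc
CXCL8 (chr4:73740319-73740618, plus strand): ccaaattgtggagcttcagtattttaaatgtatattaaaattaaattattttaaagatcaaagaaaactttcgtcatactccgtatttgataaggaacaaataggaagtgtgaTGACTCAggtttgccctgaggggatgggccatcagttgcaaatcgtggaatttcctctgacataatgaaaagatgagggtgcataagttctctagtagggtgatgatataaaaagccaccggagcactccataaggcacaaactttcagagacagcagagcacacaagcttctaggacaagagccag
The lost region at C10orf90 covered a window with 2 forkhead matches and 1 AP-1 match, the only one of the 9 lost windows with both. The gained region at FOXP1 covered a window with 1 forkhead match. The kept region at CXCL8, which encodes the chemokine interleukin 8, covered a window with 1 AP-1 match, and FOSL2 had been called there. A match is a description of the letters and not of a site in use.

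The same letters were counted in each list, without reference to classes. With windows of all annotated genes, coding or not, the share of windows under peaks with AP-1 letters was 18.1% and 19.6% in the Dox lists and 30.2% and 31.6% in the No Dox lists, from 276, 281, 182 and 307 windows. Both Dox lists lay below both No Dox lists. The means were 18.8% ± 1.03 with doxycycline and 30.9% ± 0.973 without it (SD, n = 2 each), a difference of -12.1 percentage points. For the forkhead letters the shares were 30.1% and 29.5% in the Dox lists and 27.5% and 27.04% in the No Dox lists, a difference of 2.55 points with no overlap of the lists. Exact two-sided permutation of the lists gave p = 0.333 for both, the smallest that 2 against 2 allow, and the adjusted value over 4 such tests was also 0.333 (exact permutation).

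Regions that only 1 list held, which have no class, showed the same order for the AP-1 letters. Of the 5687 such regions of No Dox lists 4465 were of the second list, so that side was mostly 1 library. AP-1 letters stood in 14 of 107 windows under regions of 1 Dox list (13.1%, 95% exact interval 7.34 to 20.98) and in 37 of 84 windows under regions of 1 No Dox list (44.0%, 33.2 to 55.3). The forkhead letters stood in 18.7% of the windows of 1 Dox list (11.8 to 27.4) and in 14.3% of the windows of 1 No Dox list (7.61 to 23.6), and these intervals overlap. On the same windows of all genes, AP-1 letters stood in 16 of 25 lost windows (64.0%, 42.5 to 82.0), 3 of 29 gained windows (10.3%, 2.19 to 27.4) and 27 of 126 kept windows (21.4%, 14.6 to 29.6), and in 17.0% of 1585 windows under WT FOXA1 regions. The median GC content was 44.3% in lost, 49.3% in gained and 46% in kept windows, against 58.7% over all windows, and its part in the shares was not tested. Most regions lay far from gene starts, and their sequences were not analysed here.

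**Figure D1:**
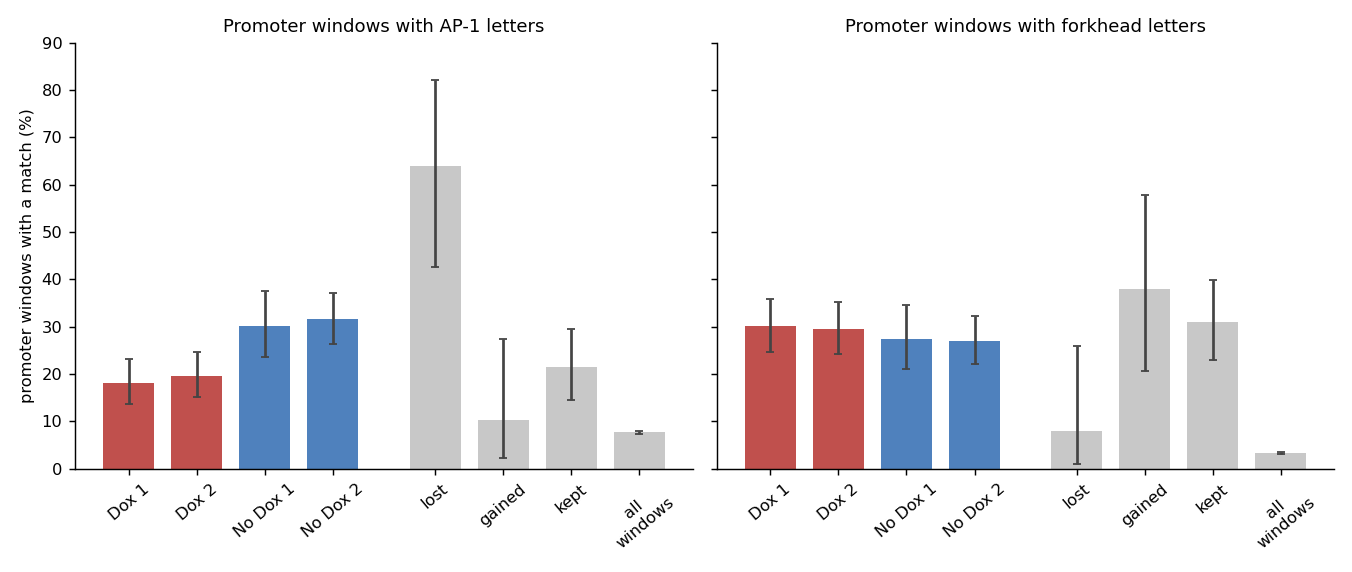
Share of promoter windows (percent, all annotated genes) that held AP-1 letters (left) or forkhead letters (right), for the windows under the peaks of each list, under lost, gained and kept regions, and over all windows. Bars are shares and lines 95% exact intervals over windows; AP-1 letters stood in 18.1% and 19.6% of windows in the Dox lists and 30.2% and 31.6% in the No Dox lists, and in 64.0% of lost windows.

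As deposited, the Dox lists held more FOXA1 peaks that were not called in both WT FOXA1 lists. This number did not separate the conditions in lists of equal length, but did so at −log10 q of at least 3. The Dox lists held 11112 and 15065 peaks and the No Dox lists 7633 and 13247, and the lists of the conditions interleaved. Peaks also called in both WT FOXA1 lists numbered 6931 and 8785 in the Dox lists and 6572 and 12034 in the No Dox lists, with a higher mean in the No Dox lists (7858 with doxycycline, 9303 without it). Peaks in at least 1 WT list numbered 7945 and 10344 in the Dox lists and 6773 and 12541 in the No Dox lists. The remaining peaks, those not in both WT lists, numbered 4181 and 6280 in the Dox lists and 1061 and 1213 in the No Dox lists. These did not interleave, and their mean of 5230.5 ± 1484 with doxycycline was 4.60 times the 1137 ± 107 without it (SD, n = 2 each; exact two-sided permutation p = 0.333, the smallest that 2 against 2 allow). With the 7633 strongest peaks of each list the remaining peaks numbered 1317 and 685 in the Dox lists and 1061 and 12 in the No Dox lists, which interleaved (exact permutation p = 0.667, n = 2 each). The first No Dox list set that length and kept all its peaks. At −log10 q of at least 3 the remaining peaks numbered 1988 and 4114 in the Dox lists and 464 and 655 in the No Dox lists, which separated.

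The share of peaks that both WT lists also held was 62.4% and 58.3% in the Dox lists and 86.1% and 90.8% in the No Dox lists. With lists of equal length it was 82.7% and 91.0% in the Dox lists and 86.1% and 99.8% in the No Dox lists, the difference was -6.09 instead of -28.1 percentage points, and the lists interleaved. At −log10 q of at least 3 it was 76.8% and 67.7% in the Dox lists and 93.2% and 94.7% in the No Dox lists, which separated. Peaks not in both WT lists had low median fold enrichment in all lists, 3.54 and 3.36 in the Dox lists and 3.63 and 3.58 in the No Dox lists. Peaks in both WT lists had medians of 5.82 and 6.53 in the Dox lists and 6.35 and 6.82 in the No Dox lists, which overlapped. Fold enrichment is the authors' own value over background, and it describes peaks within a list. Over all peaks the medians were 4.48 and 4.75 in the Dox lists and 5.74 and 6.34 in the No Dox lists, which separated. At equal length they were 5.596 and 7.32 in the Dox lists and 5.74 and 9.31 in the No Dox lists, which interleaved. The protocol states 50000000 paired reads of 50 bp for each sample, but peak lists carry no read counts, so the depth used for each was not seen here. In bulk samples fewer bound cells and less binding per cell cannot be told apart. Without No Dox replicate 1 the mean peak number was lower with doxycycline, by a difference of -158.5.

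Repressive marks covered a larger share of FOXA1 peaks in both Dox lists than in either No Dox list (exact two-sided permutation p = 0.333 for each mark, n = 2 each). At equal length this held for H3K27me3 and not for H3K9me3, and at −log10 q of at least 3 it held for both marks. H3K27me3, as called in both WT libraries, overlapped 9.18% and 8.32% of peaks in the Dox lists and 2.86% and 2.04% in the No Dox lists. With lists of equal length it overlapped 5.65% and 4.15% in the Dox lists and 2.86% and 0.904% in the No Dox lists, a difference of 3.02 instead of 6.30 points. Among peaks in both WT lists, it overlapped 3.55% and 3.38% in the Dox lists and 1.08% and 1.21% in the No Dox lists. Among the other peaks it overlapped 18.5% and 15.2% in the Dox lists and 13.9% and 10.2% in the No Dox lists, so the Dox lists were higher in both kinds of peak. At equal length the peaks in both WT lists still separated, at 3.53% and 3.41% in the Dox lists and 1.08% and 0.905% in the No Dox lists, and the other peaks did not. H3K9me3 overlapped 5.26% and 6.52% of peaks in the Dox lists and 3.24% and 2.14% in the No Dox lists, but 2.67% and 1.55% in the Dox lists and 3.24% and 0.760% in the No Dox lists of equal length. At −log10 q of at least 3 it overlapped 3.43% and 4.88% in the Dox lists and 2.01% and 1.54% in the No Dox lists. Within the kinds, H3K9me3 covered 1.54% and 1.25% of shared peaks in the Dox lists and 0.989% and 0.873% in the No Dox lists, but 11.4% and 13.9% of the other peaks in the Dox lists and 17.2% and 14.7% in the No Dox lists, where the order turned round. The marks were measured in WT cells, and marks after induction were not analysed here.

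FOSL2, called in both No Dox FOSL2 lists, overlapped 9.58% and 6.23% of FOXA1 peaks in the Dox lists and 23.6% and 21.1% in the No Dox lists. In lists of equal length these were 11.9% and 9.72% in the Dox lists and 23.6% and 26.0% in the No Dox lists. Among peaks in both WT lists, the values were 14.2% and 10.3% in the Dox lists and 26.8% and 22.6% in the No Dox lists. Gene starts within 1 kb were near 2.83% and 2.201% of peaks in the Dox lists and near 2.23% and 2.48% in the No Dox lists, with no separation. Median peak width was 327 and 372 bp in the Dox lists and 365 and 340 bp in the No Dox lists, also interleaved. Of 15 measures per list, 8 did not interleave between conditions, and each of those had an exact permutation p of 0.333, or 0.625 after Benjamini-Hochberg adjustment over the 15.

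**Figure D2:**
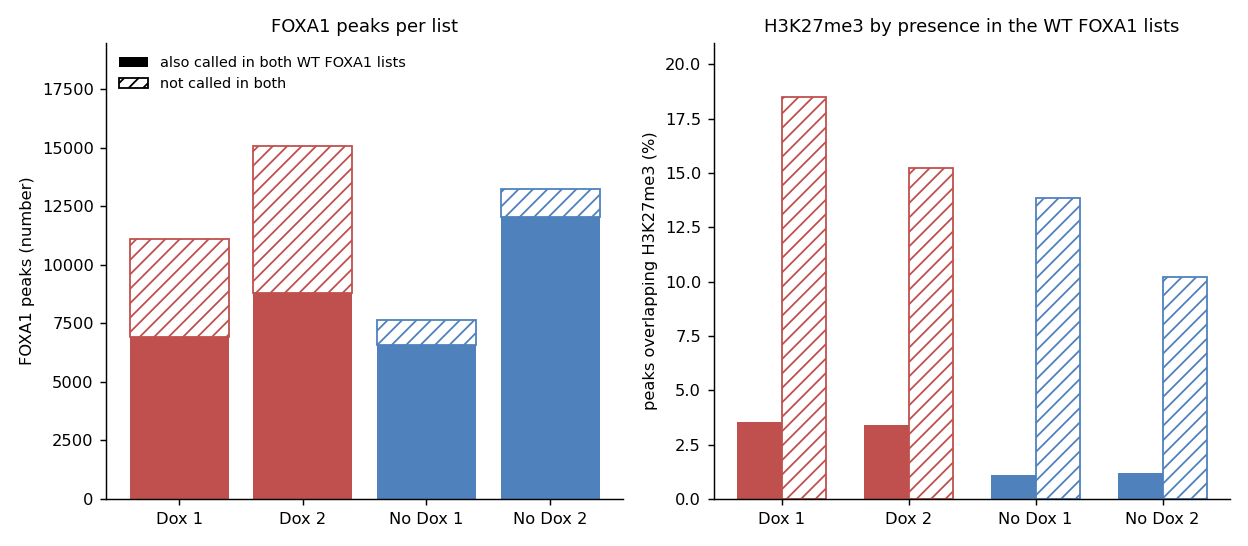
FOXA1 peaks per list (left, number), split into those also called in both WT FOXA1 lists (filled) and the rest (hatched), and the percent of each kind that overlapped H3K27me3 of WT cells (right). The hatched part holds 4181 and 6280 peaks in the Dox lists and 1061 and 1213 in the No Dox lists, as deposited and with no match for list length.

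Most regions stood in a single list. Of the 27825 regions 17441 (62.7%) were called in 1 list, 4866 in 2, 2313 in 3 and 3205 (11.5%) in all 4. The Dox lists shared 53.0% of the first and 38.9% of the second list's peaks with each other, and the No Dox lists 79.0% of the first and 45.5% of the second. Between conditions the first Dox list shared 34.6% of its peaks with the first and 45.7% with the second No Dox list, and the second Dox list shared 26.8% and 41.4%. The second Dox list alone held 7302 regions and the first alone 4452, while the second No Dox list alone held 4465 and the first alone 1222.

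Among single-list regions those of the second No Dox list stood apart. Both WT lists held 18.6% of those of the first Dox list and 23.4% of those of the second, and 25.9% of those of the first No Dox list and 80.2% of those of the second. The second No Dox list thus held 3581 regions that both WT lists also held and that no other A-Fos list did. H3K27me3 overlapped 17.1% and 13.0% of the single-list regions of the Dox lists and 11.05% and 2.64% of those of the No Dox lists, so the first No Dox list lay nearer to the Dox lists than to the second. FOSL2 overlapped 2.36% and 0.479% of the single-list regions of the Dox lists and 7.45% and 20.8% of those of the No Dox lists.

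**Figure D3:**
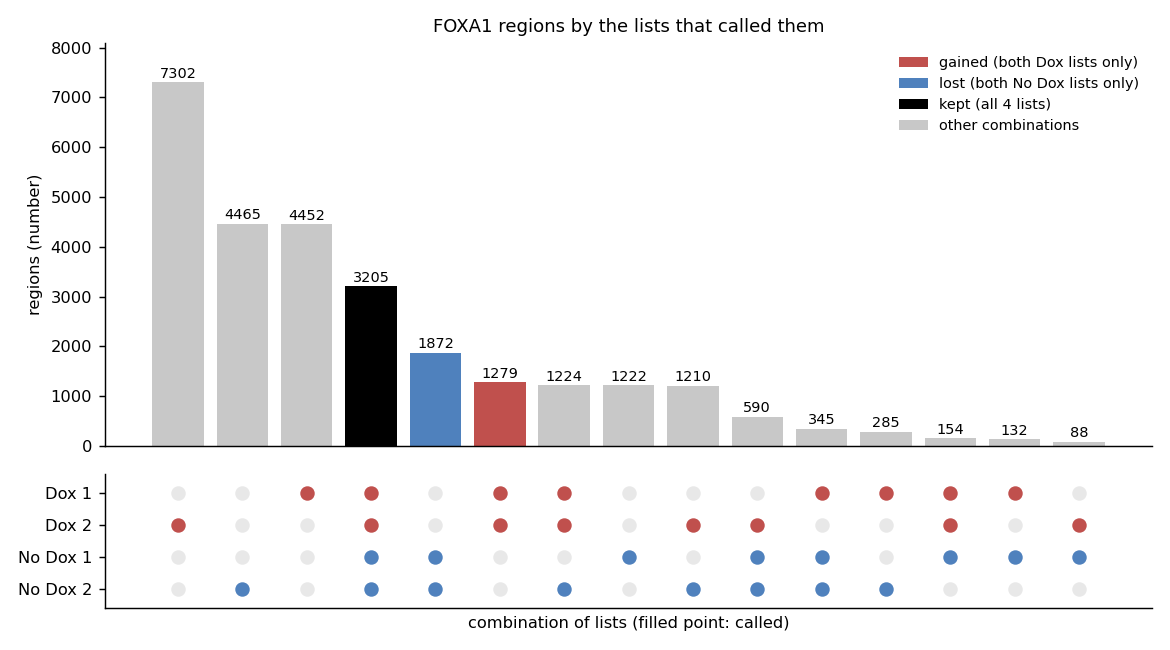
Number of FOXA1 regions (upper panel) for each of the 15 combinations of lists that called them (lower panel, filled points). Regions of 1 list dominate, with 7302 in the second Dox list alone, and 3205 regions were kept, 1872 lost and 1279 gained.

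Of 6012 regions in both No Dox lists, 1872 were lost, which is 31.1% (6.73% of all regions), another 15.6% were in 1 Dox list and 53.3% were kept. Of 5862 regions in both Dox lists, 1279 were gained, which is 21.8% (4.6% of all regions), another 23.5% were in 1 No Dox list and 54.7% were kept. With 1 list left out of a condition, a class needs only the other one: 6342 regions were lost without No Dox replicate 1 and 3109 without No Dox replicate 2, and 8585 were gained without Dox replicate 1, 5744 without Dox replicate 2 and 2503 without No Dox replicate 2. Regions of low rank were lost or gained more often. Regions were ranked by the mean percentile of their fold enrichment, in the No Dox lists for the lost share and in the Dox lists for the gained share. The lost share ran from 46.5% in the lowest decile to 7.64% in the highest, and the gained share from 50.6% to 0.341%. In the highest decile 46 of 602 regions were lost and 2 of 587 gained.

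Lost and gained regions also differed in rank in WT cells, which the classes did not use. Both WT lists held 99.3% of lost regions (95% exact interval 98.7 to 99.6), 71.4% of gained regions (68.8 to 73.8) and 99.4% of kept regions (99.1 to 99.6). The median percentile of fold enrichment in the WT lists was 90.3 and 94.3 for lost regions, 65.3 and 76.2 for gained regions, and 94.4 and 96.8 for kept regions. Lost regions thus stood near kept ones in WT cells, and gained regions stood lower. The WT share of gained regions was 30.5% without Dox replicate 1 and 30.3% without Dox replicate 2. Among regions in both No Dox lists and both WT lists, the lost share over quartiles of WT rank, from the lowest to the highest, was 62.7%, 57.1%, 43.6% and 22.1% with FOSL2 and 36.4%, 26.5%, 24.5% and 14.6% without it. The regions with FOSL2 lay above the others in every quartile.

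H3K27me3 overlapped 11 of 1872 lost regions (0.588%, 0.294 to 1.05), 143 of 1279 gained regions (11.2%, 9.51 to 13.0) and 52 of 3205 kept regions (1.62%, 1.21 to 2.12). In gained regions that both WT lists held the share was 9.31% of 913, against 0.484% of 1858 lost and 1.60% of 3186 kept regions of that kind. Of the 366 gained regions not in both WT lists it covered 15.8%. The share in lost regions was 2.02% without No Dox replicate 1 and 4.66% without No Dox replicate 2. H3K9me3 overlapped 1.12% of lost, 4.14% of gained and 1.06% of kept regions. The intervals cover counting error over regions alone, and regions of 1 list are not replicates.

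**Figure D4:**
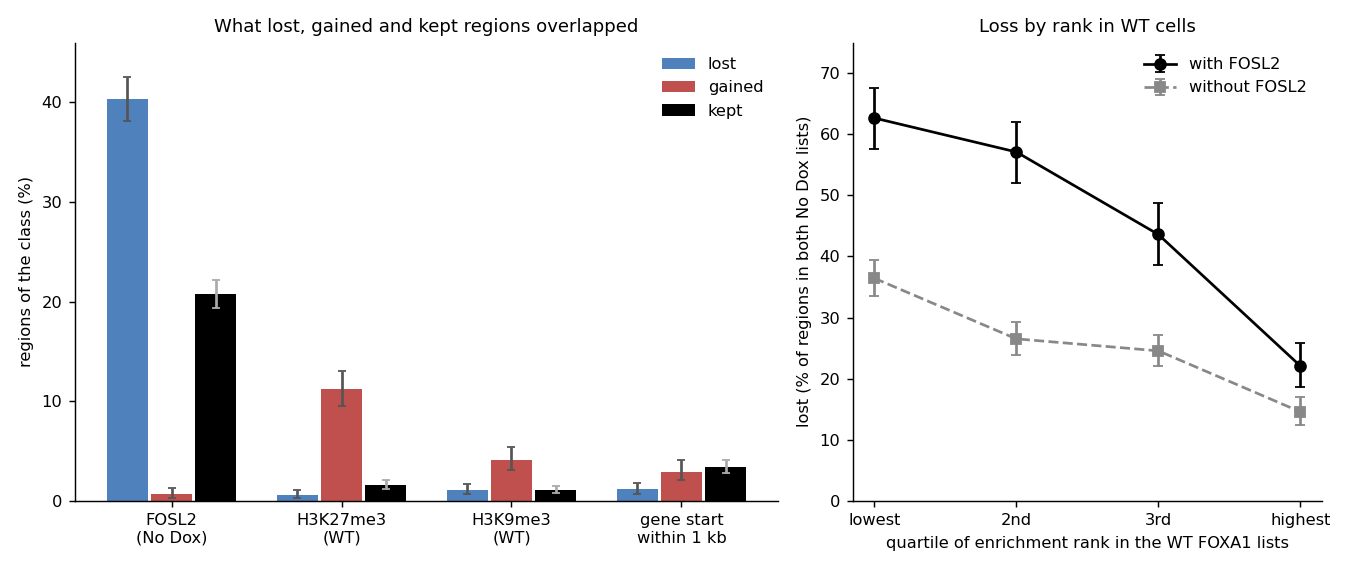
Left, percent of lost, gained and kept FOXA1 regions that overlapped FOSL2 (called without doxycycline), H3K27me3 or H3K9me3 (WT cells) or lay within 1 kb of a protein-coding gene start, with 95% exact intervals over regions. Right, percent lost of the regions in both No Dox lists by quartile of WT rank, with and without FOSL2; the share falls from 62.7% to 22.1% with FOSL2 and from 36.4% to 14.6% without it.

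In kept regions the summits of the 4 lists lay close together. In 3151 kept regions with a single peak in each list, the median distance between summits was 13 bp between the Dox lists and 10 bp between the No Dox lists. Between conditions it was 14 and 13 bp for the first Dox list and 10 and 6 bp for the second, against the first and second No Dox list. The smallest median thus lay between a Dox and a No Dox list. For lost regions the nearest peak of a Dox list lay a median of 31.0 kb away, and within 1 kb for 4.22%. For gained regions the nearest peak of a No Dox list lay a median of 52.1 kb away, and within 1 kb for 2.19%.

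Kept regions were wider, with a median of 593 bp, against 441 bp for lost and 411 bp for gained regions, although a union over 4 lists widens a region. Single peaks in kept regions were also wider than those in lost or gained regions of the same lists. Peaks in gained regions had median widths of 311 and 364 bp in the Dox lists, against 441 and 500 bp in kept regions of the same lists. Peaks in lost regions had 349 and 399 bp in the No Dox lists, against 427 and 449 bp in kept regions. A kept region lay within 50 kb of 25.9% of lost, 17.8% of gained and 31.1% of other kept regions.

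Few regions of any class lay at gene starts, and lost ones did so least. Outside chromosome 8, a protein-coding start lay within 1 kb of 20 of 1743 lost regions (1.15%, 95% exact interval 0.702 to 1.77), 35 of 1191 gained regions (2.94%, 2.06 to 4.06) and 103 of 3008 kept regions (3.42%, 2.80 to 4.14), against 1.95% of all regions. The share in gained regions was 1.28% without the first and 1.98% without the second Dox list, and 4.23% without the second No Dox list. Gene bodies held 45.99% of lost, 45.3% of gained and 49.5% of kept regions. Regions more than 50 kb from any protein-coding gene made up 28.7% of lost, 29.1% of gained and 26.3% of kept regions.

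Of the regions at gene starts, the lost one at ADGRF4 (chr6:47698243-47698840) had 8.81-fold and 18.01-fold enrichment in the No Dox lists and was in neither Dox list. The lost one at C10orf90 (chr10:126521294-126521764) had 8.85-fold and 13.2-fold in the No Dox lists, and FOSL2 covered both. Other lost regions lay at FOXJ3, at KLHL4 and FYCO1, an adaptor of autophagosome transport, and at PTPRH, a receptor phosphatase. The gained one at FOXP1 (chr3:71244530-71245415) had 7.14-fold and 5.45-fold enrichment in the Dox lists and stood at the 55.0 and 84.3 percentiles of the WT lists. Further gained regions lay at CFAP126, at RPL7L1, a ribosomal protein-like gene, at METTL24, at LOC124903090 and at ODAPH, an enamel gene. That at ODAPH, with 6.72-fold and 9.30-fold in the Dox lists, was not in both WT lists.

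Kept regions at gene starts included some of the strongest peaks. At CXCL8 (chr4:73740292-73740983) fold enrichment was 42.8 and 55.6 in the Dox lists and 22.8 and 38.3 in the No Dox lists. At ECT2, a guanine exchange factor of cell division (chr3:172750084-172750796), it was 37.0 and 57.1 in the Dox lists and 21.9 and 43.8 in the No Dox lists. At DNPEP, an aminopeptidase gene (chr2:219398639-219399416), it was 10.7 and 28.7 in the Dox lists and 39.5 and 77.4 in the No Dox lists. Fold enrichment from different lists is not on 1 scale, so these values are side by side and no change is read from them. RHOH, MAST4 and LOC128071544 completed the 6 kept regions named by rank at gene starts.

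Away from gene starts, the lost region of highest rank lay inside PLCB1, with 32.9-fold and 61.7-fold enrichment in the No Dox lists and the 99.5 and 99.7 percentiles of the WT lists. All 10 lost regions named by rank were in both WT lists, at the 98.7 percentile or above. They were nearest PLCB1, DIS3L2, BCCIP, IFT80, CDH6, ZNF608, AUTS2, DST, NHS and PTGER4. Of these 10, 5 overlapped FOSL2, against 40.3% of all lost regions. The 10 gained regions named by rank had 9.72-fold to 18.4-fold enrichment in the first and 11.1-fold to 21.2-fold in the second Dox list. The first lay 21.7 kb from AKIRIN1, with 18.4-fold and 15.96-fold in the Dox lists and the 67.8 and 88.2 percentiles of the WT lists. That nearest OPRK1 stood at the 29.5 and 8.18 percentiles of the WT lists, and that nearest HIVEP2, a zinc finger factor, was in the second WT list alone. The others were nearest BMPER, TXNRD1, CSMD2, NCEH1, PTPN14, NEDD9 and CLCN4. None of the 10 overlapped FOSL2, which overlapped 0.704% of all gained regions.

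The strongest kept region lay inside TRIM5, a restriction factor of retroviruses (chr11:5620918-5621834), with 109-fold and 175.6-fold enrichment in the Dox lists and 72.3-fold and 156-fold in the No Dox lists. The next, 53.1 kb from the cytokine gene IL6, had 88.4-fold and 112-fold in the Dox lists and 110-fold and 162-fold in the No Dox lists. The remaining 8 were nearest PDE4D, AGR3, COL12A1, LTBP1, SLC38A2, RND3, GALNT10 and MAPKAP1. Of the 10, 7 overlapped FOSL2, against 20.7% of all kept regions. The widest regions were 1434 bp for lost, 735 kb from ZNF608, 1166 bp for gained, 108 kb from RGS3, and 3259 bp for kept, nearest LOC124903442 and inside H3K9me3.

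Several genes held regions of all 3 classes. PDE4D, a cAMP phosphodiesterase gene of 1553 kb, had 7 lost, 7 gained and 14 kept regions within 50 kb, and MACROD2, of 2058 kb, had 4 lost, 2 gained and 15 kept. Lost regions gathered at NSMCE2, a SUMO ligase of the SMC5/6 complex, with 6 lost, 0 gained and 1 kept, at CHRM3, a muscarinic receptor, with 5, 0 and 1, at PARD3, a polarity protein, with 5, 0 and 4, and at NRG1, a growth factor of ERBB receptors, with 5, 1 and 3. Gained regions gathered at NEDD9, a focal adhesion scaffold, with 2 lost, 4 gained and 1 kept, at LRMDA, with 0, 4 and 3, at NEO1, a netrin receptor, with 0, 3 and 0, and at KCNMA1, a potassium channel, with 1, 3 and 1. THSD4, TLE1, a Groucho corepressor, and ARHGEF28 had 9, 7 and 7 kept regions. These genes are long for the most part, and counts were not scaled by length.

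Across 19974 protein-coding genes, 8.97% had a lost region within 50 kb, 6.92% a gained one and 14.6% a kept one. Of 32 lung and foregut epithelial genes 7 had a lost, 3 a gained and 9 a kept region. The kept region 42.1 kb from FOXA1 itself (chr14:37546603-37547448) had 40.5-fold and 68.4-fold enrichment in the Dox lists and 19.4-fold and 48.7-fold in the No Dox lists. That near the secretoglobin gene SCGB3A2 (chr5:147835112-147836022) had 6.49-fold and 16.02-fold in the Dox lists and 54.4-fold and 131-fold in the No Dox lists. EHF, an epithelial ETS factor, had 1 lost and 3 kept regions, GRHL2 4 kept ones, and SFTPB, a surfactant protein, 2 lost ones. Gained regions lay near SOX9, inside H3K27me3, near SLC34A2, the phosphate transporter of alveolar cells, and inside HNF4G, a nuclear receptor.

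Of 32 AP-1-linked genes 3 had a lost, 4 a gained and 11 a kept region, and of 11 AP-1 family genes 2, 0 and 1. ATF3 and BATF held the lost ones, and JUN had a kept one 31.1 kb away with 10.6-fold and 6.91-fold enrichment in the Dox lists and 5.10-fold and 5.01-fold in the No Dox lists. FOS and FOSL2 had no lost, gained or kept region within 50 kb. The lost region at CCND1, the cyclin D1 gene, had 4.93-fold and 15.0-fold in the No Dox lists and stood at or above the 99.2 percentile of the WT lists. Of the 16 NRF2 targets, the antioxidant genes, 4 had a lost, 1 a gained and 8 a kept region, the gained one inside TXNRD1, with 13.3-fold and 18.3-fold in the Dox lists. The aldo-keto reductase genes AKR1C1, AKR1C2 and AKR1C3 lie side by side and share several of the kept regions, and 1 lost region counts for both AKR1C1, 15.3 kb away, and AKR1C2, 39.6 kb away. Of 8 steroid response genes 1 had a lost, 1 a gained and 2 a kept region.

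Markers of the cell type say little here, since a FOXA1 peak does not show expression. Of 9 markers of lung epithelium KRT8, KRT18 and SFTPB had a lost, gained or kept region within 50 kb. Of 14 markers of other cell types CD34, RBFOX3, MYOD1 and PECAM1 did. Of all 19974 protein-coding genes 25.1% did.

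The share of FOXA1 peaks on single chromosomes separated the lists as deposited and at −log10 q of at least 3, but hardly at equal length. Chromosome 12 held 9.85% and 10.8% of peaks in the Dox lists and 7.87% and 7.62% in the No Dox lists. Chromosomes 5, 8, 12, 15, 17, 19 and 20 had a higher share in both Dox lists than in both No Dox lists, which is 7 of 23 or 30.4%, and 13 (56.5%) had a lower share. At −log10 q of at least 3, 6 chromosomes were higher, 10 were lower and 7 overlapped. With lists of equal length 0 chromosomes were higher, 2 were lower and 21 overlapped, and chromosome 12 held 8.15% and 7.69% of peaks in the Dox lists and 7.87% and 6.38% in the No Dox lists. In the FOSL2 lists of the same line, as deposited, 9 of 23 chromosomes were higher with doxycycline, 11 were lower and 3 overlapped. All 7 chromosomes higher for FOXA1 were among the higher ones, and 11 of the 13 lower for FOXA1 among the lower ones. The FOSL2 lists were not cut to equal length. On chromosome 12 the FOSL2 shares were 14.7% and 12.1% in the Dox lists and 7.12% and 9.43% in the No Dox lists.

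Fewer chromosomes separated the lists when peaks in both WT lists and the other peaks were taken apart. With peaks in both WT lists 5 chromosomes were higher, 6 lower and 12 overlapped, and the ratio of the mean shares on chromosome 12 was 1.12, against 1.33 over all peaks. With the other peaks 3 were higher, 3 lower and 17 overlapped. Those peaks lay on chromosome 12 in 13.9% and 14.6% of cases in the Dox lists and in 14.5% and 14.3% in the No Dox lists. They were rare on chromosome 6, with 1.27% and 1.16% in the Dox lists and 0.848% and 0.824% in the No Dox lists. Copy number and inputs were not analysed here, and their part in the shares was not tested.

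**Figure D5:**
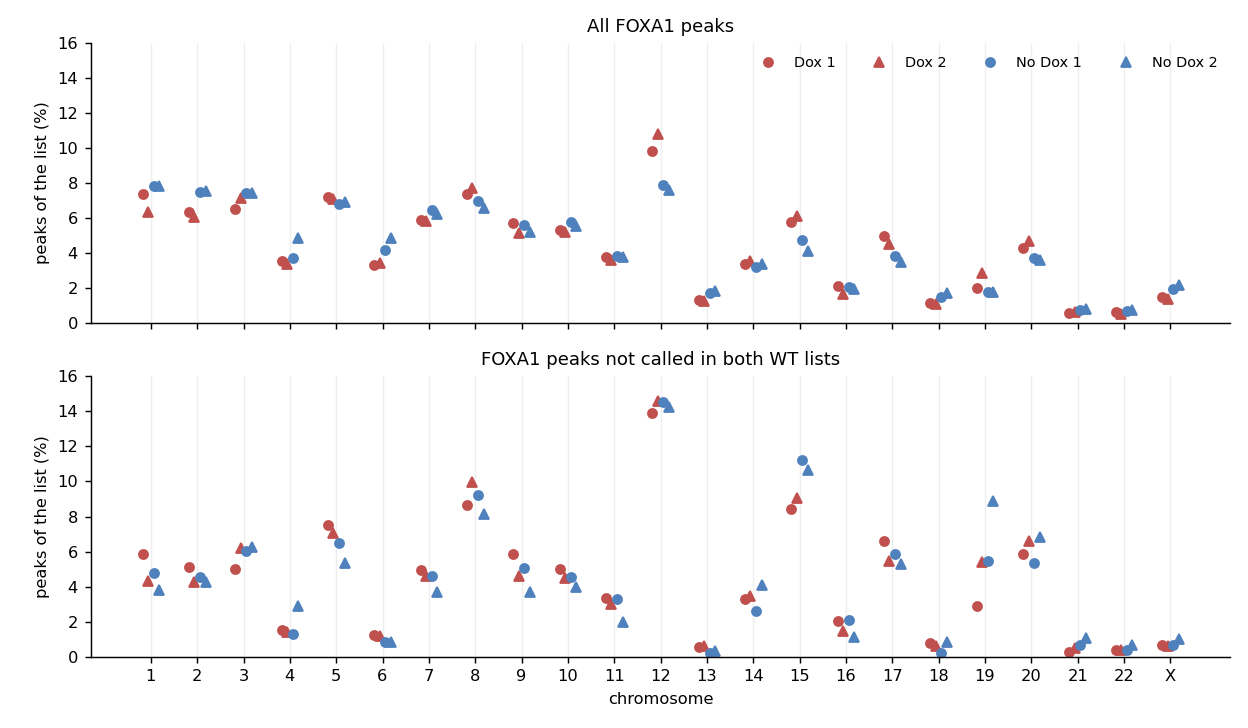
Percent of a list's FOXA1 peaks on each chromosome, for all peaks (upper panel) and for peaks not called in both WT FOXA1 lists (lower panel), with Dox lists in red and No Dox lists in blue. On chromosome 12 the Dox lists stand higher over all peaks (9.85% and 10.8%, against 7.87% and 7.62%, lists of unequal length), while all 4 lists lie between 13.9% and 14.6% in the lower panel.

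Loss was most frequent on chromosome X, where 60 of 138 regions in both No Dox lists were lost (43.5%, 95% exact interval 35.1 to 52.2). It was least frequent on chromosome 21, with 12 of 49 (24.5%, 13.3 to 38.9), near the 24.7% of 231 on chromosome 15. The interval for chromosome 21 holds the 31.1% over all chromosomes. The share of gained regions among those in both Dox lists was 27.5% of 262 on chromosome 15 (22.2 to 33.3). On chromosome 21 it was 4 of 39 (10.3%, 2.87 to 24.2), an interval that holds the 21.8% over all chromosomes. Over all chromosomes and in the lists as deposited, 13033 regions were held by Dox lists alone and 7559 by No Dox lists alone. In windows of 5 Mb, those of Dox lists alone were most numerous at 5 to 10 Mb of chromosome 20, with 179 against 56. At 25 to 30 Mb of chromosome 19 the counts were 141 and 35, and none of the 216 regions there was in both WT lists. At 135 to 140 Mb of chromosome 8 they were 143 and 25, with 8 regions in both WT lists. By the count of Dox lists alone these windows stood at ranks 1, 5 and 4 of 595. Those at ranks 2 and 3, not named above, held 94 of 285 and 103 of 273 regions in both WT lists.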

How the data were processed

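ChIP-seq peak lists of 4 libraries (2 Dox, 2 No Dox) were compared, with lists of WT FOXA1, H3K9me3 and H3K27me3 and of FOSL2 as annotation. Groups came from the sample titles. Each deposited list gives, per the file headers and values, a peak's position, its summit, a linear fold enrichment (a ratio), and a −log10 p-value and −log10 q-value, with 1 list per library. The smallest deposited −log10 q was 1.30. The build was hg38 and MACS2, deepTools, SAMtools 1.8, BWA 2.2.1, fastp 0.23.2 and DRAGEN were used, per the submitters' processing notes. Neither the settings nor the peak-calling control is stated. The labels' protocol states 50000000 paired reads of 50 bp per sample; the lists hold no read counts, so the depth that entered each, and any precision from it, is unknown. Peak numbers missing from a list numbered 78 and 172 (Dox) and 77 and 127 (No Dox); why was not stated.

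Regions, overlaps of at least 1 bp and nearest genes were computed with Python 3.11.15, pandas 2.3.3 and NumPy 2.4.6, and exact permutation tests and Clopper-Pearson intervals with SciPy 1.17.1. A mark, or WT FOXA1, was taken where both libraries had it. Genes came from 19974 protein-coding entries and starts from 34961 promoter windows of RefSeq GRCh38.p14, with no window on chromosome 8. The functions for regions, overlaps, permutation and intervals were tested on simulated data; the letter search was not. The members, lists and tests were chosen with earlier results of these data known. The named regions were the 10 of highest mean percentile per class, the 6 highest within 1 kb of a gene start, the 3 widest, the 5 genes with most regions, and up to 5 members per list and class; the windows under all regions and lists were searched for motifs after their named examples were seen. Alternatives were a q threshold, lists of equal length, 50% overlap, all contigs, a replicate block, peaks in both WT lists and each library left out; the alternative with peaks in both WT lists, and all those for H3K27me3, H3K9me3, FOSL2, chromosome 12, the WT share and the letters, were chosen after seeing the data.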

Additional observations from a re-analysis of the deposited data

How the results depend on the processing

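Of 195 values of 24 results under the alternatives, 156 passed as unchanged, 32 moved and 7 reversed. For differences between lists unchanged means the same sign alone, since no test could pass 0.05 with 2 lists each. With the 7633 strongest peaks of each list, the difference (Dox minus No Dox) was -6.09 instead of -28.1 points for peaks in both WT lists, 464.5 instead of 4093.5 for the number of other peaks, -1.07 instead of -1.43 for median enrichment, 0.111 instead of 3.21 points for H3K9me3 and 0.793 instead of 2.58 points for chromosome 12, and the lists interleaved for these 5. For H3K27me3 it was 3.02 instead of 6.30 points and for FOSL2 -13.98 instead of -14.5 points, with the lists still separate. At −log10 q of at least 3 the lists stayed separate for all of these measures. The difference there was -21.7 points for peaks in both WT lists and 2491.5 for the number of other peaks. The difference in peak number (2648.5) was 1023.5 at −log10 q of at least 3, -1445 with peaks in both WT lists and ran from -158.5 to 5455.5 when each library was left out, negative without No Dox replicate 1. The difference in median width (-3 bp) was 2 bp at −log10 q of at least 3, 2.5 bp with lists of equal length (7633 peaks), 17.5 bp with peaks in both WT lists, and -25.5 to 19.5 bp when each library was left out. The cause was not tested. With lists of equal length 33.1% were lost, 99.9% of lost and 84.6% of gained regions were in both WT lists, and 9.42% of gained regions overlapped H3K27me3; at −log10 q of at least 3 the WT share of gained regions was 74.2%.

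Leaving out a library loosens the classes to 1 list of a condition. It gave 2216 to 6342 lost, 1431 to 8585 gained and 3356 to 4431 kept regions, 36.9% to 48.0% lost, 1.28% to 4.23% of gained and 1.12% to 1.57% of lost regions at gene starts, and median widths of 311 to 451 bp (lost) and 287 to 427 bp (gained). The WT share was 70.3% to 99.3% (lost) and 30.3% to 83.3% (gained), and with 1 WT library left out and the classes as they were it reached 99.7% and 88.2%. The H3K27me3 share was 0.568% to 4.66% (lost) and 8.11% to 15.6% (gained). The difference in AP-1 letters ran from -13.4 to -9.57 points and that in forkhead letters from 2.28 to 3.96 points over all their alternatives.

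With a replicate block (same-numbered libraries, exact sign-flip test) the differences kept their values, such as -12.1 points for AP-1 letters with p = 0.5 by that exact test, the smallest 2 pairs allow. The correlation of presence between same-numbered lists was 0.0166. Every region stands in at least 1 list, which lowers such a correlation, so this value cannot show whether the numbers pair the libraries. The labels' numbers were not taken to pair them.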

Other observations

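Peaks on contigs other than chromosomes 1 to 22 and X numbered 102 and 165 in the Dox lists and 72 and 107 in the No Dox lists, or 0.910% and 1.08% of the Dox lists and 0.934% and 0.801% of the No Dox lists. Of these, 6 and 0 in the Dox lists and 6 and 1 in the No Dox lists lay on the mitochondrial genome.

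FOSL2 overlap differed between combinations of lists that have no class. It was 48.7% in the 345 regions of the first Dox list and both No Dox lists, 19.5% in the 590 regions of the second Dox list and both No Dox lists, and 6.05% in the 1224 regions of both Dox lists and the second No Dox list. The difference between these combinations was not tested.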
